A study of Homo sapiens with 14 samples.

Results

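Amino acids cross the plasma membrane through solute carriers, and 10 of these genes are described here in Kasumi-1, a human acute myeloid leukemia cell line: SLC7A11, SLC7A5, SLC3A2, SLC7A6, SLC38A1, SLC38A2, SLC1A5, SLC1A4, SLC7A1 and SLC6A9. They were taken by gene name, without use of their values, and all 10 were found among the 16405 genes of the RBPMS knockdown table and among the 12325 genes of the RB98# table. In the knockdown experiment, cells carried a lentiviral control (shCtrl, n = 3) or a lentiviral shRNA that targets the RNA-binding protein gene RBPMS (shRBPMS, n = 3), with 48 h of infection and then 48 h of puromycin selection. In the other experiment, cells were treated with the solvent DMSO (2 libraries, n = 2) or with RB98# (2 libraries, n = 2). RB98# is a code name, and neither its dose nor the length of treatment is in the labels. The labels name no separate cultures and no number of shRNA sequences, so p-values measure the spread between these libraries, which may be technical. The other 4 of 14 samples (RNA immunoprecipitation and m6A libraries) are not used here.

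The transporters fall into groups by what they carry. SLC3A2 (the heavy chain CD98) brings light chains to the membrane: SLC7A5 (LAT1) exchanges large neutral amino acids such as leucine, SLC7A11 (xCT) imports cystine for glutathione synthesis in exchange for glutamate, and SLC7A6 exchanges cationic for neutral amino acids. SLC38A1 and SLC38A2 take up glutamine and other small neutral amino acids with sodium, SLC1A5 (ASCT2) and SLC1A4 (ASCT1) exchange small neutral amino acids, SLC7A1 (CAT1) takes up arginine and lysine, and SLC6A9 (GLYT1) takes up glycine. As background, the transcription factor ATF4, made when amino acids run short or proteins misfold, is known to raise several of these genes, NFE2L2 (NRF2) and ATF4 to raise SLC7A11, and MYC to raise SLC1A5 and SLC7A5.

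Library totals ran from 24.03 to 34.38 M counts (1 M is 1000000) in the knockdown experiment and from 13.85 to 15.35 M with DMSO and RB98#. The unit of level is CPM, counts per 1000000 scaled by TMM factors, which allow for a different make-up of the libraries. The targeted gene RBPMS was at 20.41, 7.24 and 7.39 CPM in shCtrl and at 2.53, 3.34 and 3.08 CPM in shRBPMS, so the groups did not overlap. All 8 myeloblast markers were listed in both tables, led by the granule enzyme MPO at 11540 to 16360 CPM. Of 12 markers of other cells, 7 were listed in neither table (among them CD3G, MS4A1, HBB, KRT8, KRT18 and COL1A1). EPCAM, chosen as an epithelial marker, was at 26.6 to 65.4 CPM and PECAM1, chosen as an endothelial marker, at 45.7 to 404.1 CPM. Whether their RNA came from other cells or from Kasumi-1 cells was not tested. The library descriptions put replicate 1 of both knockdown groups in a set of its own (label set 1) and replicates 2 and 3 in label set 2. The labels do not explain these sets.

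All 10 are protein-coding genes in GENCODE 29 (GRCh38). SLC7A11 lies at chr4:138164097-138242349 on the minus strand, SLC7A5 at chr16:87830023-87869488 (minus), SLC3A2 at chr11:62856102-62888875 (plus) and SLC7A6 at chr16:68264516-68301823 (plus). SLC38A1 and SLC38A2 are neighbours on chromosome 12, at chr12:46183063-46270017 and chr12:46358189-46372867, both on the minus strand. SLC1A5 lies at chr19:46774883-46788594 (minus), SLC1A4 at chr2:64988477-65023865 (plus), SLC7A1 at chr13:29509410-29595688 (minus) and SLC6A9 at chr1:43991500-44031467 (minus). Exons of genes on the opposite strand overlap 44.4% of the exon bases of SLC7A6 (SLC7A6OS), 23.4% of SLC1A5 (AC008622.2), 8.97% of SLC7A11 (SLC7A11-AS1), 7.83% of SLC6A9 (CCDC24) and 5.71% of SLC7A5 (AC126696.2). Whether counting used the strand is not given in the sources used here, so reads of these partners cannot be told apart from their own. SLC7A5 also has the pseudogenes SLC7A5P1 and SLC7A5P2, which were not listed in the tables, so its counts are uncertain to that extent.

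RefSeq (GRCh38.p14) gave promoter windows for 9 of the 10 genes, all but SLC7A11, 15 windows in all, each from 250 bases before to 50 after a start site. They were searched on both strands for TTGCATCA, an element that C/EBP and ATF4 pairs are known to bind, for TGACNNNGC, the core of the element that NFE2L2 binds, and for CACGTG, the E-box that MYC binds. No matches of different motifs overlapped. Windows of SLC38A2 and SLC1A4, whose changes differed between the experiments past the threshold, are shown. So are windows of some genes higher with RB98# (SLC3A2, SLC7A5, SLC7A1 and SLC1A5). For SLC1A4, SLC1A5 and SLC3A2, which have several windows, only a window with a match is shown, and each also has a window without any. SLC38A1 and SLC6A9 were also called higher with RB98#, but their windows held no match and are not shown. The letters run from 150 bases before to 10 after the start, 5′ to 3′ on the gene's strand, with matches in capitals.
SLC38A2, chr12:46372764-46372923, minus strand: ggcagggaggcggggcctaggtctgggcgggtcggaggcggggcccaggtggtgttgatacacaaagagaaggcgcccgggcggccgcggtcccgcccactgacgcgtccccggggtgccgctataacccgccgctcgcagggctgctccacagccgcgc
SLC1A4, chr2:64989249-64989408, plus strand: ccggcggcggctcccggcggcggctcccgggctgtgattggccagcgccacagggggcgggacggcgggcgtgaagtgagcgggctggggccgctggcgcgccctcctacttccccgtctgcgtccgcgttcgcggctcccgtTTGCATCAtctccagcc
SLC1A5, chr19:46784805-46784964, minus strand: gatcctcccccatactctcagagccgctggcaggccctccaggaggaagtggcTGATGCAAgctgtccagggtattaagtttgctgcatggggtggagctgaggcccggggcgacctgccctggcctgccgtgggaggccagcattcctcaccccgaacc
SLC3A2, chr11:62881549-62881708, plus strand: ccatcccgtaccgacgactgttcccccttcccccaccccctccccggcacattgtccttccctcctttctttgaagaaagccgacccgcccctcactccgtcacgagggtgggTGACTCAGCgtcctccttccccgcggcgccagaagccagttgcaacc
SLC7A5, chr16:87869498-87869657, minus strand: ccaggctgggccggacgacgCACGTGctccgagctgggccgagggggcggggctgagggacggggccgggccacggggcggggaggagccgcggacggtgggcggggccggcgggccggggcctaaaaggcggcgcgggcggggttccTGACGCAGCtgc
SLC7A1, chr13:29595679-29595838, minus strand: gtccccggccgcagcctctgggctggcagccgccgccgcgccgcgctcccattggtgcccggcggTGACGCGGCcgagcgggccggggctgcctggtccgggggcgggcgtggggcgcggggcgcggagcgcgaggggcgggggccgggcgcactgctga
TTGCATCA was in 2 of the 15 windows, 7 bases before a start of SLC1A4 and, as its complement TGATGCAA, 97 bases before a start of SLC1A5, against 0.866% of all 35116 windows. TGACNNNGC was in 5 of 15 windows (13.3% of all), among them TGACTCAGC 37 bases before a start of SLC3A2, and the others belonged to SLC7A5, SLC7A1, SLC7A6 and a second start of SLC1A5. CACGTG was in 2 of 15 windows (7.26% of all), 130 bases before the start of SLC7A5 and 50 bases before the second start of SLC1A5. The window of SLC38A2 held none of these letters. The windows of 1 gene are not independent, the motifs were chosen after the values were seen, and a match describes letters only.

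RB98# was compared with DMSO to see which of the transporters differ under the compound. With RB98# 8 of the 10 rose and 0 fell, at an adjusted p under 0.05 in edgeR's quasi-likelihood test with Benjamini-Hochberg adjustment over all genes. Of all 12324 genes tested, 20.5% rose and 17.3% fell, and the median log2 change was 0.45 over the 10 transporters and 0.00 over all genes. Both RB98# libraries lay above both DMSO libraries in the same 8 genes, a separation found in 34.3% of all genes. The largest changes were those of SLC7A11 and SLC38A2, and SLC1A4 and SLC7A6 were not called. In these bulk libraries a change in the mix of cells and a change in RNA per cell cannot be told apart. Of the 8 myeloblast markers 3 rose with RB98#, MPO (log2 change 0.22), RUNX1T1 (0.37) and SPI1 (0.26). Another 3 fell, CD34 (-0.37), KIT (-0.40) and CD33 (-0.84). The summed level of the 8 was 14510 to 14610 CPM with DMSO and 16090 to 17060 CPM with RB98#. Most of that sum was MPO, at 13060 and 12970 CPM with DMSO and at 14760 and 15650 CPM with RB98#. Of the 3 listed markers of other cells PECAM1 had the highest level in each library. The 3 summed to 143 and 148.6 CPM with DMSO and to 129.1 and 131.5 CPM with RB98#. Their part in the result was not tested.

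Among the partners of CD98, the cystine importer SLC7A11 was at 17.21 and 17.51 CPM with DMSO and at 66.35 and 54.51 CPM with RB98#. Both treated libraries were far above both controls, with a fold change of 3.48 (log2 change 1.80, SE 0.11, edgeR adjusted p = 1.61e-12). The heavy chain SLC3A2 was at 129.9 and 122.1 CPM with DMSO and at 193.0 and 186.1 CPM with RB98#. It rose 1.505-fold (log2 change 0.59, SE 0.06, edgeR adjusted p = 9.13e-08). The leucine exchanger SLC7A5 went from 262 and 246 CPM to 320 and 335.9 CPM, a smaller rise of 1.29-fold (0.37, SE 0.06, edgeR adjusted p = 2.51e-05). SLC7A6, the remaining light chain, was at 79.4 and 82.3 CPM with DMSO and at 73.6 and 75.8 CPM with RB98#. Both its treated libraries lay below the controls, but the change of -0.12 (SE 0.07) did not pass in edgeR (adjusted p = 0.235). Heavy chain and light chains thus had changes of different size, with SLC7A11 highest and SLC7A6 not called.

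**Figure D1:**
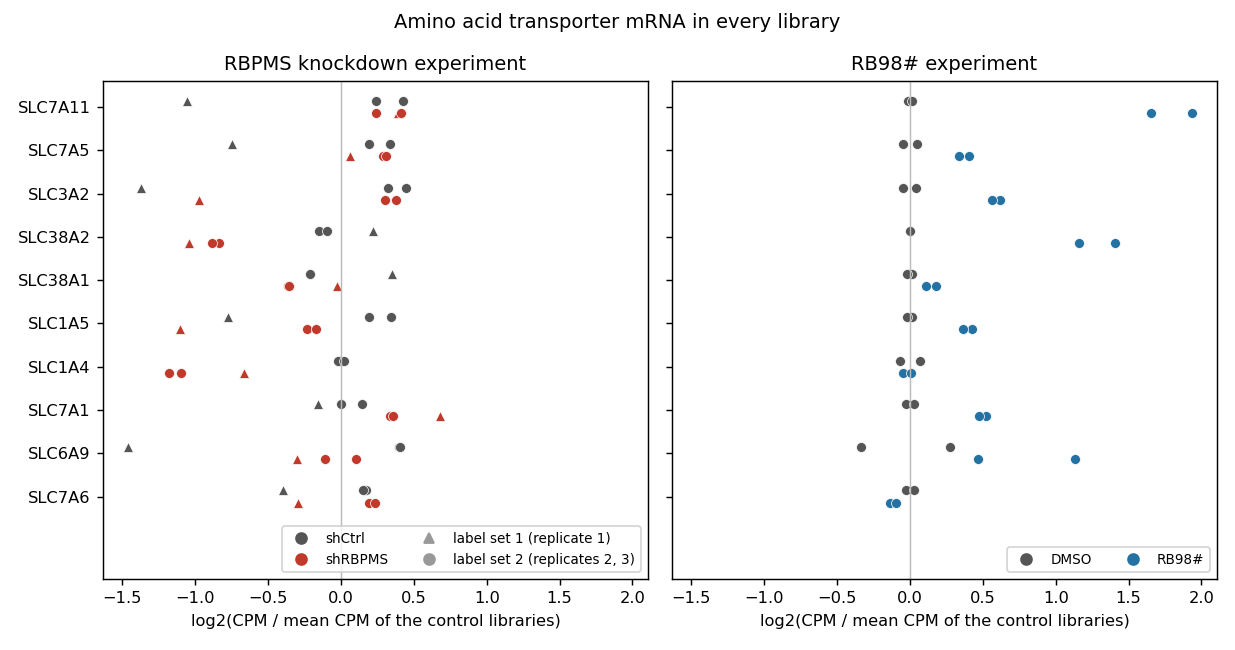
Level of each transporter in every library as log2 of its CPM over the mean of the control libraries of the same experiment, for the knockdown (left; triangles are label set 1, circles label set 2) and RB98# (right). With RB98# the points of SLC7A11 and SLC38A2 lie furthest right of their controls, and on the left the shRBPMS points of SLC38A2 and SLC1A4 lie below all of their controls.

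Of the sodium-coupled carriers of small neutral amino acids, SLC38A2 was at 173.5 and 173.0 CPM with DMSO and at 460.2 and 387.1 CPM with RB98#. It rose 2.45-fold (log2 change 1.29, SE 0.07, edgeR adjusted p = 1.99e-13). Its neighbour and close relative SLC38A1 went from 364.9 and 356.3 CPM to 408.2 and 389.4 CPM, 1.106-fold (0.15, SE 0.06, edgeR adjusted p = 0.0436). That call rests on the scaling: with DESeq2's size factors the adjusted p in edgeR was 0.0504, and with library totals alone the log2 change was 0.04 (adjusted p = 0.549). Library totals alone moved the median of all genes to -0.10. SLC38A1 was also not called by edgeR with the replicate number as a block (adjusted p = 0.132), by DESeq2 (0.0839), or without DMSO replicate 1 (0.274), DMSO replicate 2 (0.409) or RB98# replicate 1 (0.0920).

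The exchanger SLC1A5 went from 180.5 and 176.2 CPM to 239.4 and 229.6 CPM with RB98#, 1.315-fold (log2 change 0.39, SE 0.06, edgeR adjusted p = 1.34e-05). Its paralog SLC1A4 was at 37.7 and 41.5 CPM with DMSO and at 38.2 and 39.9 CPM with RB98#, so the groups overlapped, and the change of -0.02 (SE 0.09) did not pass in edgeR (adjusted p = 0.877). The arginine and lysine transporter SLC7A1 went from 180.2 and 186.8 CPM to 263.1 and 255.1 CPM. It rose 1.41-fold (0.50, SE 0.06, edgeR adjusted p = 4.62e-07). The glycine transporter SLC6A9, with the lowest level, was at 3.82 and 2.51 CPM with DMSO and at 4.37 and 6.94 CPM with RB98# (0.84, SE 0.27, edgeR adjusted p = 0.0179). Its call was lost without DMSO replicate 2 (0.56, adjusted p = 0.207), without RB98# replicate 2 (0.47, adjusted p = 0.268) and in DESeq2 (0.83, adjusted p = 0.0885). The authors' deposited table gave log2 changes of 1.80 for SLC7A11 and 1.29 for SLC38A2 (adjusted p = 5.15e-29 and 9.01e-54), and SLC38A1 (adjusted p = 0.0628) and SLC6A9 (adjusted p = 0.163) did not pass there.

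Levels of different genes can be set side by side only per length, which the authors' deposited FPKM-like values of the RB98# experiment allow. With DMSO the order was SLC1A5 (55.35 ± 0.732, mean ± SD, n = 2), SLC7A5 (55.1 ± 2.25), SLC38A1 (37.2 ± 0.495), SLC38A2 (27.5 ± 0.0529), SLC7A1 (24.7 ± 0.720) and SLC3A2 (20.4 ± 0.820). Below them were SLC7A6 (11.02 ± 0.322), SLC1A4 (5.90 ± 0.427), SLC7A11 (1.86 ± 0.0297) and SLC6A9 (0.623 ± 0.181). SLC1A5 and SLC7A5 did not differ beyond their spread, while the other neighbours in this order did not overlap. The order rests on the lengths behind these values. For SLC3A2 they imply 6.4 kb, whereas its exons in GENCODE 29 cover 5178 bases. For SLC7A1 the lengths are close (7.7 kb and 7692 bases), so the place of SLC3A2 below SLC7A1 is uncertain. With RB98# SLC38A2 (62.7 ± 7.55) passed SLC38A1 (38.4 ± 1.215) and lay within the spread of SLC1A5 (67.8 ± 1.89) and SLC7A5 (66.4 ± 2.39), while SLC7A11 (6.04 ± 0.827) and SLC1A4 (5.42 ± 0.171) exchanged places within their spread. Even after its rise, the light chain SLC7A11 thus stood below SLC7A5 per length. With the same lengths, CPM per kilobase in shCtrl was close for SLC38A2 (55.9 ± 8.08, n = 3), SLC1A5 (55.5 ± 20.3), SLC7A5 (53.9 ± 19.2) and SLC38A1 (47.3 ± 11.2). It was 0.711 ± 0.326 for SLC7A11 and 0.374 ± 0.206 for SLC6A9, the lowest. The large SDs of shCtrl follow replicate 1, described further on.

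The knockdown was compared with its own control to see which of the transporters differ when RBPMS is reduced. Of the 10, 2 fell (SLC38A2 and SLC1A4) and 0 rose in edgeR with group alone, a fit in which 1.34% of 16215 genes fell and 0.629% rose. DESeq2 and limma-voom also called 0 higher, and at an unadjusted p under 0.05 edgeR had 1 higher, SLC7A1. When the replicate number was added as a blocking term (the blocked fit), which takes account of the label sets, 3 fell and 1 rose, where 14.8% of all genes fell and 13.3% rose. The median log2 change over the 10 was -0.04 with group alone and 0.02 with the block, and it was 0.02 over all genes in both. The groups did not overlap in SLC38A2, SLC1A4 and SLC7A1, 3 of 10 genes against 25.9% of all genes. Of the 8 myeloblast markers CD33, ANPEP and SPI1 rose and 0 fell with group alone. With the block the same 3 rose and 2 fell, RUNX1T1 (-0.68, edgeR adjusted p = 0.00535) and CD38 (-0.90, adjusted p = 0.0473). The summed level of the 8, most of it MPO, was 13590 to 17690 CPM in shCtrl and 15300 to 17030 CPM in shRBPMS. Of the 5 listed markers of other cells PECAM1 had the highest level in each library. The 5 summed to 127 to 448 CPM in shCtrl and 84.2 to 173.6 CPM in shRBPMS, and the T-cell gene CD3E fell from 1.31 to 0.151 CPM. Their part in the result was not tested.

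SLC38A2 was at 424.9, 328.2 and 340.4 CPM in shCtrl and at 176.9, 203.6 and 197.0 CPM in shRBPMS. Each shRBPMS library was well below every control (log2 change -0.92, SE 0.15, edgeR adjusted p = 0.0353; blocked -0.91, adjusted p = 0.00192). Within label set 1 the log2 ratio was -1.26 and within label set 2 it was -0.74. SLC1A4 was at 40.6, 40.2 and 41.3 CPM in shCtrl, the tightest control values of the 10 genes, and at 25.6, 19.0 and 17.9 CPM in shRBPMS. It fell by 0.96 on the log2 scale (SE 0.17, edgeR adjusted p = 0.0457; blocked -0.98, adjusted p = 0.00161), with ratios of -0.66 in set 1 and -1.14 in set 2. With group alone, leaving out 1 library at a time gave log2 changes of -0.81 to -1.002 for SLC38A2 and of -0.89 to -1.14 for SLC1A4, while the calls were mostly lost. SLC38A2 was called without shCtrl replicate 1 (adjusted p = 0.0352) but not without any other library (0.0840 to 0.182), and SLC1A4 was called in none of the 6 fits (0.0511 to 0.228). Both passed in the authors' deposited table, SLC38A2 with a log2 change of -0.86 (adjusted p = 1.12e-04) and SLC1A4 with -1.04 (adjusted p = 6.95e-07).

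SLC1A5 and SLC7A1 were called in the blocked fit but not with group alone. They were also called in the other fits that take account of the label sets. SLC1A5 was at 108.0, 235.3 and 211.9 CPM in shCtrl and at 85.9, 157.4 and 164.3 CPM in shRBPMS, so the groups overlapped across the label sets but not within them. Its log2 change was -0.45 (SE 0.36, edgeR adjusted p = 0.626) with group alone and -0.43 (adjusted p = 0.00560) with the block. The ratio was -0.33 in set 1 and -0.475 in set 2. SLC7A1 was at 145.7, 179.0 and 162.2 CPM in shCtrl and at 259.4, 205.3 and 208.3 CPM in shRBPMS, with every shRBPMS library above every control. Its log2 change was 0.47 (SE 0.15, edgeR adjusted p = 0.169) with group alone and 0.46 (adjusted p = 0.0252) with the block, and the ratio was 0.83 in set 1 and 0.28 in set 2. SLC38A1 was at 604.7, 409.7 and 409.5 CPM in shCtrl and at 465.8, 369.6 and 370.9 CPM in shRBPMS. It was lower within each set (-0.38 and -0.15), and was called in neither fit (edgeR adjusted p = 0.646 and, blocked, 0.0511). The edgeR fits with the label set as a covariate (adjusted p = 0.0169) and of label set 2 alone (0.00153) called it lower. With replicates 2 and 3 summed it was not called (0.206).

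SLC3A2 (CD98), its light chains and the glycine transporter were not called in either knockdown fit. SLC7A11 was at 3.30, 9.21 and 8.11 CPM in shCtrl and at 9.01, 9.13 and 8.12 CPM in shRBPMS, so shCtrl replicate 1 stood apart from the other 5 libraries (log2 change 0.34, SE 0.36, edgeR adjusted p = 0.737; blocked 0.41, adjusted p = 0.306). SLC7A5 was at 153.0, 325.6 and 293.3 CPM in shCtrl and at 268.1, 314.0 and 318.3 CPM in shRBPMS (0.22, SE 0.28, edgeR adjusted p = 0.787; blocked 0.29, adjusted p = 0.202). SLC3A2 was at 54.65, 193.6 and 177.3 CPM in shCtrl and at 72.0, 184.3 and 175.1 CPM in shRBPMS, with both replicates 1 low and the groups overlapping (0.02, SE 0.53, edgeR adjusted p = 0.994; blocked 0.10, adjusted p = 0.503). SLC7A6 ranged from 36.0 to 53.5 CPM in shCtrl and from 38.5 to 55.65 CPM in shRBPMS (0.06, SE 0.22), and SLC6A9 from 0.713 to 2.60 CPM and from 1.59 to 2.11 CPM (-0.11, SE 0.47).

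Levels of these genes also differed between the label sets. Label set 2 over label set 1, with the group as a covariate, was higher in 5 of the 10 and lower in 1 by edgeR, where 28.0% of all genes were higher and 29.2% lower. SLC3A2 had a log2 difference of 1.53 (adjusted p = 6.69e-06), SLC1A5 of 0.98 (adjusted p = 8.06e-06), SLC6A9 of 0.97 (adjusted p = 0.0341), SLC7A5 of 0.61 (adjusted p = 0.00726) and SLC7A6 of 0.53 (adjusted p = 1.11e-04). SLC38A1 was lower in set 2 (-0.45, adjusted p = 2.84e-04). SLC38A2 (-0.09), SLC7A1 (-0.06), SLC1A4 (-0.23) and SLC7A11 (0.54, adjusted p = 0.120) did not pass. The genes called between the sets did not include the 2 called with group alone for the knockdown. That fit leaves the set difference in its spread (SE of SLC3A2 0.53, blocked 0.10). Genes that differ between the sets are thus hard to call in it, and no conclusion is drawn from the lack of shared genes. SLC1A5 was called both between the sets and in the blocked knockdown fit (edgeR adjusted p = 0.00560).

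Within the sets the knockdown ratios are given as values, since set 1 has 1 library per group. For SLC7A11 the log2 ratio of shRBPMS over shCtrl was 1.45 in set 1 and -0.01 in set 2. SLC7A5 had 0.81 in set 1 and 0.03 in set 2, and SLC3A2 had 0.40 and -0.05. So the higher shRBPMS values of SLC7A11, SLC7A5 and SLC3A2 were those of the single pair of set 1. In SLC38A2, SLC38A1, SLC1A4, SLC1A5, SLC7A1 and SLC7A6 the ratio kept its sign in both sets, and in SLC6A9 it was 1.16 in set 1 and -0.40 in set 2. An edgeR test of the set by group interaction passed for 8 of the 10 genes, against 17.3% of all genes. Its spread is that of replicates 2 and 3 alone, which may be technical repeats, so it compares these libraries and does not show that the knockdown effect differs between the sets.

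**Figure D2:**
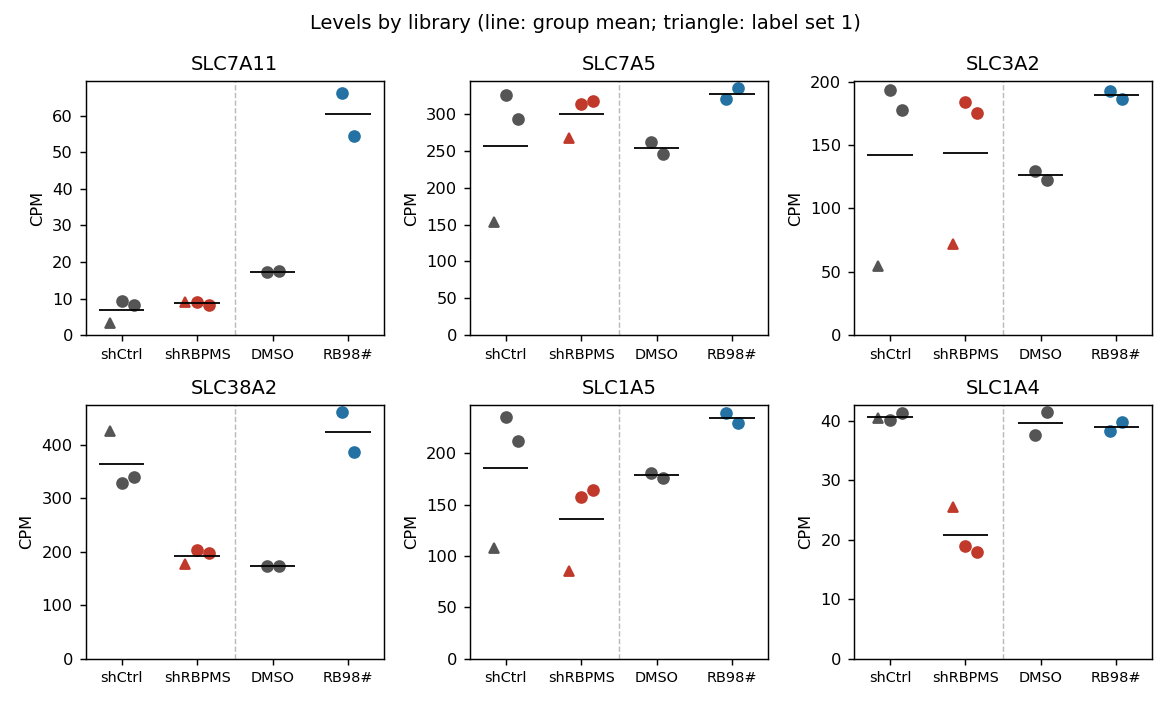
CPM of 6 transporters in every library of the 4 groups (1 point per library, triangles for label set 1, lines for group means, each axis from 0). The triangles of SLC3A2, at 54.65 and 72.0 CPM, lie below all other libraries of that gene, while SLC38A2 and SLC1A4 part shRBPMS from shCtrl in both sets.

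The experiments share no control library, and the difference of their effects, RB98# over DMSO less shRBPMS over shCtrl, was tested in a joint edgeR fit of all 10 libraries. Both experiments share a common spread in it, which with group alone includes the difference between label sets. For SLC3A2 the SE was 0.74, beside 0.53 in the knockdown and 0.06 with RB98#. A difference not called with group alone is thus not read as a like effect. The difference was above 0 for 2 of the 10 genes, where 4.79% of 12126 genes were called in that direction, and for 6 with the replicate block, where 18.9% were. No transporter had a called difference below 0 in either fit. In both directions together, 988 of all genes were called with group alone and 4497 with the block. With 10 genes no conclusion is drawn from that 0. The median difference over the 10 was 0.68, and over all genes it was -0.01. SLC38A2, which fell with the knockdown and rose with RB98#, had the largest difference, 2.195 on the log2 scale (SE 0.21, edgeR adjusted p = 0.00248; blocked 2.18, adjusted p = 7.35e-05). SLC1A4, which fell with the knockdown and was not called with RB98#, had a difference of 0.93 (SE 0.21, edgeR adjusted p = 0.0350; blocked 0.95, adjusted p = 0.00202). SLC38A2 was called without any single library (adjusted p from 8.72e-04 to 0.0388), whereas SLC1A4 lost its call in 8 of 10 such fits.

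The block added 4 genes to these calls. SLC7A11 had a difference of 1.44 (SE 0.48, edgeR adjusted p = 0.104; blocked 1.39, adjusted p = 0.0107), and without shCtrl replicate 1 it was 1.76 (adjusted p = 0.00211) with group alone. SLC1A5 had 0.82 (edgeR adjusted p = 0.36; blocked 0.81, adjusted p = 5.94e-04), SLC3A2 0.55 (0.725; blocked 0.48, adjusted p = 0.0194) and SLC38A1 0.37 (0.450; blocked 0.35, adjusted p = 0.0325). SLC7A1, higher in mean in both experiments, had a difference of 0.02 (SE 0.18), and SLC7A5 had 0.13 (SE 0.38). SLC6A9 (0.93, SE 0.68) and SLC7A6 (-0.20, SE 0.30) were called in neither fit.

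**Figure D3:**
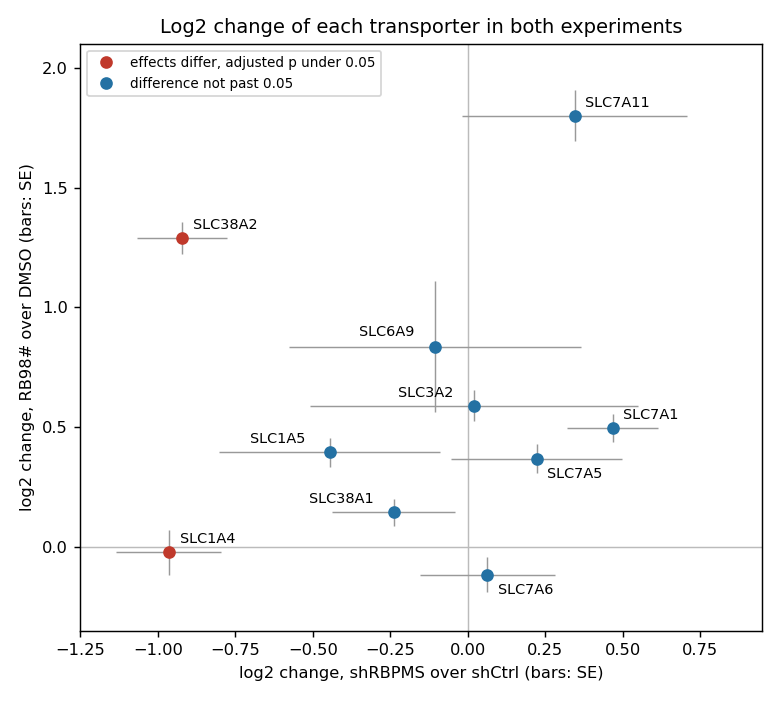
Log2 change of each transporter with RB98# (vertical axis) against that with the RBPMS knockdown (horizontal axis), group alone, with SE bars. SLC38A2 lies at -0.92 and 1.29 and SLC1A4 at -0.96 and -0.02, the 2 genes in red whose difference passed, while SLC7A1 lies at 0.47 and 0.50.

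Of 41 other genes listed here as amino acid transporters of the plasma membrane and lysosome, 16 were tested in the knockdown and 15 with RB98#. With RB98# 3 rose and 3 fell (median log2 change -0.18), near the shares of 20.5% and 17.3% over all genes. SLC6A6, the taurine transporter, rose from 99.96 ± 0.967 to 161 ± 10.7 CPM (0.69, edgeR adjusted p = 1.87e-08). SLC43A2, an exporter of large neutral amino acids, fell from 9.18 ± 0.238 to 4.32 ± 1.28 CPM (-1.10, edgeR adjusted p = 1.91e-04), and SLC43A3 of the same family fell by 0.44. The place of SLC43A3 among amino acid carriers is uncertain, so the counts of this list are uncertain by 1 gene. After the knockdown SLC16A10, a carrier of aromatic amino acids, fell from 55.2 ± 5.49 to 23.3 ± 1.87 CPM (-1.24, edgeR adjusted p = 0.0222), the 1 call with group alone, while the block called 6 up and 5 down (median 0.17), where 13.3% and 14.8% of all genes were called. Of the mitochondrial carriers of amino acids, 7 of 14 fell and 0 rose with RB98# (median -0.38), where 17.3% of all genes fell and 20.5% rose. SLC25A29, a carrier of basic amino acids, fell by 0.77, SFXN2 fell by 0.75, and SLC25A22, a glutamate carrier, fell by 0.70. In the knockdown 0 of 15 were called with group alone, and with the block 2 rose and 3 fell, near the shares of 13.3% and 14.8% over all genes.

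Genes of the amino acid response and its regulators were mostly higher with RB98#, with 14 of 21 up and 2 down (median log2 change 0.54), where 20.5% of all genes rose and 17.3% fell. ATF4 went from 251.5 ± 9.08 to 454 ± 13.5 CPM (0.85, SE 0.06, edgeR adjusted p = 1.89e-11). The stress factor ATF3 went from 7.68 ± 2.45 to 65.3 ± 5.95 CPM (3.08, edgeR adjusted p = 4.14e-15), and CHAC1, which degrades glutathione, from 1.56 ± 0.184 to 13.1 ± 2.75 CPM (3.06, edgeR adjusted p = 1.92e-10). PPP1R15A, which recruits a phosphatase to the translation factor eIF2, rose by 1.66. DDIT3 (CHOP) rose by 0.84 and NFE2L2 by 0.43, while MYC fell from 390 ± 1.41 to 276 ± 7.61 CPM (-0.50, edgeR adjusted p = 1.87e-07). After the knockdown 0 of the 21 were called with group alone, and with the block 4 rose and 2 fell (13.3% and 14.8% over all genes). There ATF4 had a log2 change of -0.09 (edgeR adjusted p = 0.895), DDIT3 of 0.44 (0.450), NFE2L2 of -0.17 (0.896) and MYC of 0.15 (0.733). TRIB3 had the largest knockdown change of this list, from 37.4 ± 9.05 to 78.25 ± 5.63 CPM. Its log2 change of 1.06 fell short of the threshold with group alone (edgeR adjusted p = 0.0539) and passed with the block (1.09, adjusted p = 0.00110). Among enzymes that make or use amino acids, 8 of 22 rose and 1 fell with RB98# (median 0.15, against 20.5% and 17.3% over all genes), with rises of 0.83 for ARG2, an arginase, and 0.62 for ASNS, asparagine synthetase, which is also in the response list. In the knockdown 0 of 22 were called with group alone, and with the block 3 rose and 4 fell, near the shares of 13.3% and 14.8% over all genes.

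**Figure D4:**
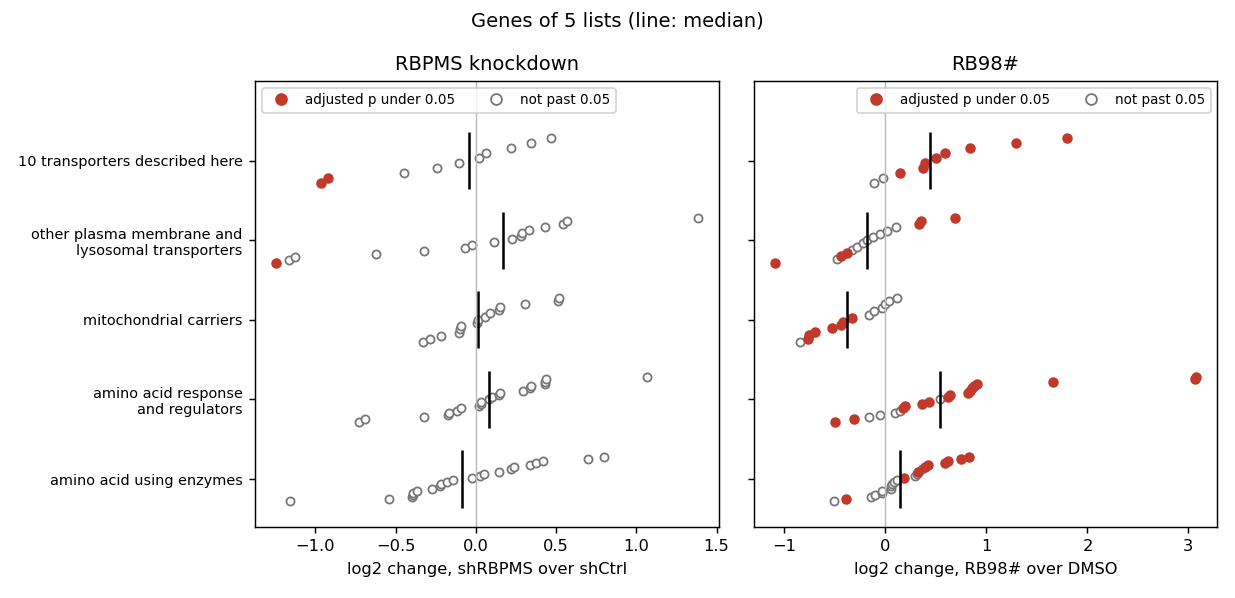
Log2 change of every tested gene in the 10 transporters and the 4 related lists, for the knockdown (left) and RB98# (right); filled points passed an adjusted p of 0.05 and black lines are medians. With RB98# the medians are 0.45 for the transporters, 0.54 for the response genes and -0.38 for mitochondrial carriers, and on the left 3 points are filled.

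The patterns most like those of SLC7A11, SLC7A5 and SLC38A2 were sought among 9656 genes over the 10 libraries, by the root mean square difference of log2 CPM after the control mean of each experiment was taken off. Nearest to SLC38A2 were HEXIM1, an inhibitor of the elongation factor P-TEFb (0.153), ANKRD33B (0.18) and LCP1, an actin-bundling protein of blood cells (0.188), where the median gene was at 0.81. All of these had a lower mean after the knockdown and rose with RB98#, HEXIM1 by 1.19 on the log2 scale. Such shared directions follow from choosing genes by likeness in these same libraries. Nearest to SLC7A11 were RELB, an NF-kB subunit (0.277), LZTS3 (0.310) and CSRNP1 (0.315), where the median gene was at 0.954. With RB98# these rose by 1.41, 1.72 and 2.03 on the log2 scale. Nearest to SLC7A5 were KIF9, a kinesin (0.0833), GPT2, a mitochondrial alanine aminotransferase (0.0922), and EBP, a sterol isomerase (0.1002), where the median gene was at 0.45. The distances describe these libraries and carry no test.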

How the data were processed

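RNA-seq was measured in 10 libraries of Kasumi-1. Per the file headers, the count columns used are raw counts per gene deposited by the authors without normalisation. Each deposited table also gives a log2 change and adjusted p-value from the authors' own comparison, quoted where the text says so. The deposited RB98# table also holds FPKM-like values, which the authors made per length and per library total, as far as the values show, since the file does not name their unit. The count over that value was constant per gene within 1% in 12290 of 12290 genes listed singly. HISAT2 2.2.1, fastp 0.22.0, DESeq2 1.32.0, featureCounts 2.0.1 and StringTie are named in the submitters' processing notes, with no step given for each. The knockdown table held no gene with a summed count under 27 and the RB98# table none under 50. Of 12437 lines of the latter, 112 that repeated a gene were dropped. The 6 adjusted per-library columns of the knockdown table were not used.

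Tests were two-sided quasi-likelihood F tests of edgeR 4.0.16 (R 4.3.3) on counts, with TMM factors, filterByExpr (count 10, total 15) and Benjamini-Hochberg adjustment over all genes at 0.05. All 10 transporters passed the filter. DESeq2 1.42.0 and limma-voom of limma 3.58.1 were alternatives. The knockdown and RB98# tests with group alone were checked on simulated counts. Those counts held no difference between label sets, so the check does not cover it. An SE is the absolute log2 change divided by the root of the F statistic.

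Same-numbered knockdown libraries deviated together (r = 0.782, 0.622 and 0.637 over 16215 genes), but replicates 2 and 3 crossed gave 0.625 and 0.617, so the shared part follows the label set. For RB98# r was -0.05. By the rule used, every pair over 0.1, the numbers count as paired in the knockdown.

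The 10 transporters, 7 gene lists and the tests were chosen with earlier results of these data known. Named were all 10 transporters, RBPMS, ATF4, DDIT3, NFE2L2 and MYC, the 3 genes nearest in pattern to each of 3 transporters, and of each list up to 3 genes with the largest change past 0.05, of which 1 is not reported here. Markers, tests between label sets, motifs and the mention of TRIB3 were added after values were seen.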

Additional observations from a re-analysis of the deposited data

Results flagged for a closer look

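In 8 of the 10 transporters the log2 ratio of shRBPMS over shCtrl was unlike between the label sets in these libraries. An edgeR test of the set by group interaction, chosen after the data were seen, passed 0.05 there and in 17.3% of all genes. The difference in log2 ratio, set 2 less set 1, was -1.55 for SLC6A9, -1.45 for SLC7A11, -0.78 for SLC7A5, -0.55 for SLC7A1, -0.48 for SLC1A4 and -0.44 for SLC3A2. It was 0.52 for SLC38A2 and 0.23 for SLC38A1. Set 1 holds 1 library per group and the test takes its spread from replicates 2 and 3, which may be technical repeats, so these values describe the libraries and do not show that the knockdown effect differs between the sets.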

How the results depend on the processing

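With RB98# the rises of SLC7A11, SLC7A5, SLC3A2, SLC38A2, SLC1A5 and SLC7A1 were called under every alternative run, and the number called higher was 6 to 8. With library totals only, 1 transporter was called lower, SLC7A6 (-0.22, adjusted p = 0.0233). Leaving out a library gave 2731 to 5028 called genes in all, and SLC1A4 ranged from -0.089 to 0.051.

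In the knockdown the replicate block raised the genes called from 320 to 4549, the transporters called higher to 1 and those lower to 3. DESeq2 called 1338 genes. The label set as a covariate called 5810, label set 2 alone 6830, and replicates 2 and 3 summed with the label set as a covariate, chosen after the data were seen, 2681. Each of these set fits called 1 transporter higher, and the covariate and set 2 alone called 4 lower, SLC38A1 among them. Leaving out a library gave 0 to 322 called genes (1866 to 2010 at an unadjusted p under 0.05 in the fits with 0) and 0 to 1 transporters lower. Directions that changed were uncalled: across left-out libraries SLC7A5 ranged from -0.054 to 0.42, SLC3A2 from -0.37 to 0.34, SLC6A9 from -0.50 to 0.14 and SLC7A6 from -0.11 to 0.21. SLC3A2 had -0.043 in label set 2 alone, and SLC6A9 had 0.051 in limma-voom and 0.18 with summed libraries.

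For the difference of both effects the replicate block called 6 transporters higher and 4497 genes in all, against 2 and 988 with group alone. Leaving out a library gave 1 to 3 transporters and 92 to 1541 genes, with SLC7A5 from -0.076 to 0.39 and SLC7A1 from -0.059 to 0.12. The cause of these changes was not tested, and fits without a library hold fewer samples. Depth limits SLC6A9 most, at 0.713 to 6.94 CPM.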

Other observations

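Levels in both experiments, which were counted and scaled apart, are given side by side without a test. SLC38A2 was at 364 ± 52.7 CPM (SD, n = 3) in shCtrl, 192 ± 13.9 CPM (n = 3) in shRBPMS, 173 ± 0.312 CPM (n = 2) with DMSO and 424 ± 51.7 CPM (n = 2) with RB98#. SLC7A11 was at 6.87 ± 3.15 CPM in shCtrl and 17.4 ± 0.212 CPM with DMSO. SLC1A4 was at 40.7 ± 0.576 CPM in shCtrl, 39.6 ± 2.72 CPM with DMSO and 39.05 ± 1.16 CPM with RB98#, and at 20.8 ± 4.16 CPM in shRBPMS.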
